A study of Mus musculus with 4 samples.

Results

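The splicing factor genes described here are those whose symbol in the authors' gene column starts with Srsf, Sf3a, Sf3b, Hnrnp, Snrp, Snrnp, Prpf, Srrm or U2af. There were 64 of them among 8800 genes with a called site of N6-methyladenosine (m6A), a methyl mark on adenosines inside messenger RNA. The rule used symbols and no measured value. The cells were bone marrow-derived macrophages of 2 wild-type (WT) mice, all stimulated for 3 h with LPS, lipopolysaccharide from the bacterial outer membrane, which Toll-like receptor 4 senses. From poly(A)-selected RNA of each mouse came 1 library of fragments bound by an m6A antibody (IP) and 1 input library, 4 in all, and cells without LPS were not analysed here. The animals' sex and age were not given in the sources used here, and the term NTC in the names of the tables is not explained by the labels.

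Splicing removes introns from pre-mRNA on the spliceosome, which is built from the U1, U2, U4, U5 and U6 small nuclear ribonucleoproteins (snRNPs). SR proteins bind exons and promote the use of nearby splice sites, while hnRNPs coat pre-mRNA and often repress them. The U2AF and SF3 proteins mark the polypyrimidine tract and the branch point, and the PRPF proteins assemble and remodel the spliceosome. Antibodies against m6A also bind m6Am, a related mark at the first transcribed base next to the cap, so a site near a gene start can be of either kind.

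The table of mouse 1 listed 45668 called sites and that of mouse 2 listed 47747, each an interval of 1 base on 1 strand. Folds (read starts, IP over input) and scores were taken as the authors deposited them. The tables give no read numbers, so depth is unknown, no error can be set on the fold of a site, and transcript abundance was not measured here. A site was called enriched at a fold of at least 8, and shared where the same base and strand was enriched in both mice. All 10 macrophage markers had called sites, and 9 had a shared enriched site. Sites were also listed for 6 of 10 neutrophil or mast cell markers (5 with a shared enriched site), for 2 of 10 lymphocyte markers (both) and for 1 of 10 markers of other marrow cells (stromal, endothelial, erythroid), which had one too. Among the markers with no called site were Mpo and Elane of neutrophils, Cd3e of T cells and Col1a1 of stromal cells. Those with called sites were Ngp, Camp, Ltf, S100a8, S100a9 and Cxcr2 of neutrophils, Cd79b and Lck of lymphocytes, and Kdr of endothelial cells. The part of such cells in the results was not tested.

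Sequence could be read around sites near gene starts, in RefSeq windows (build GRCm38.p6) that reach from 250 bases before a listed start to 50 bases after it. Such windows were listed for 54 of the 64 genes. They held 67 called sites of 35 splicing factor genes, 37 of them shared and enriched. The base at the called position was A in all 67, and in all 5321 sites of any gene inside such a window. The sequences below run 5′ to 3′ on the strand of the transcript, with the called A in capitals. The first 5 are all the splicing factor sites that were shared, enriched and read CCATT with the called A as the third letter.

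Hnrnpc: agctcgggggccAttttgtgaggag
Hnrnpd: cttccgtcggccAttttaggtggtc
Snrpf: cttttgtcggccAtttctcttagcg
Srsf5: gacgtcccttccAttttgtgcaacg
Srsf6: cgcgcgcgcaccAttgtgtggctga

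These stretches lie at chr14:52103992-52104016 (minus strand), chr5:99978924-99978948 (minus), chr10:93589639-93589663 (minus), chr12:80945492-80945516 (plus) and chr2:162931519-162931543 (plus), all annotated as 5' UTR. The called A stood 18, 3, 8, 6 and 24 bases into the gene, counted from 1 at the nearest listed start. Hnrnpc encodes an hnRNP that in human cells binds RNA opened by m6A, and its site had folds of 15.2 in mouse 1 and 15.3 in mouse 2. The site of Hnrnpd, which encodes a protein of mRNA decay also called AUF1, had folds of 12.4 and 13.9. The Sm protein gene Snrpf had folds of 13.9 and 13.1. The SR protein genes Srsf5 (13.5 and 29.4) and Srsf6 (18.1 and 28.8) were higher in mouse 2 than in mouse 1.

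A second group, of 9 shared enriched sites, read CAGT with the called A as the second letter. The 4 shown are among the 5 in which a further T follows, a choice made after the sequences were seen.

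Srsf5: gctaagtgcgtcAgttgtggagag
Prpf19: ctgggaaagggcAgtttccgttagc
Srsf10: gcgagaagaggcAgttgccgtagcg
Prpf38b: gttcccaggggcAgttggcggaaga

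They lie at chr12:80945525-80945548, chr19:10895234-10895258, chr4:135856090-135856114 (all plus strand) and chr3:108911698-108911722 (minus), all annotated as 5' UTR. The second site of Srsf5 had folds of 33.7 and 30.1. The ubiquitin ligase gene Prpf19 had 16.8 and 20.5, Srsf10 had 13.04 and 14.9, and Prpf38b had 9.03 and 8.67, so neither mouse was higher at all of the sites shown.

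The last pair, in Hnrnpdl, shows the 2 shared enriched sites that read GGAC with the called A as the third letter, the core of the usual m6A consensus.

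Hnrnpdl: aaggcaagagggActgtggccctgc
Hnrnpdl: gcgcagcaagggActgagccgaact

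They lie on the minus strand at chr5:100039244-100039268 and chr5:100039293-100039317, in what the authors annotated as a noncoding exon, 34 and 83 bases before the listed start. Their folds were 17.05 and 18.3, and 10.03 and 10.6.

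Among the 37 shared enriched splicing factor sites in the windows, 26 (70.3%) had a C before the called A, 9 (24.3%) read CAGT, 5 (13.5%) read CCATT and 2 (5.41%) read GGAC. Over all 1999 shared enriched sites in such windows the shares were 72.4%, 13.7%, 3.80% and 1.50%. Over all 355589 adenines in the 50 bases after the listed starts they were 30.8%, 2.18%, 0.349% and 1.99%. These adenines leave out the bases before a start, where 12 of the 37 sites lay, both GGAC sites among them. The 2 regions are therefore not alike. The motifs were read only on the transcript strand with the called A at the stated letter, so no A can count for more than 1 of the 3 longer motifs. Anywhere on either strand of a window, CAGT was found in 90.2%, GGAC in 87.7% and CCATT in 41.0% of all 32851 windows. These shares are a description of letters and rest on few sites. The plan of the results named no motif, so the choice of motifs can raise the splicing factor shares. Differences from the shares over all genes were not tested. Of the 37 sites 25 lay after the nearest listed start and 12 before it, with a median position of 6. On the first listed base lay 2 (5.41%), against 284 of 1999 (14.2%) over all genes, a difference that was not tested. With 12 sites before the listed start, that base need not be the first transcribed one. Sites of m6A and m6Am were not told apart here.

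**Figure D1:**
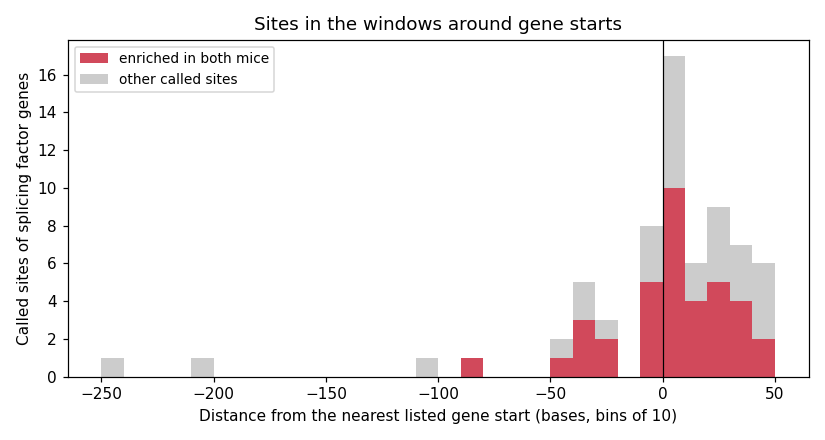
Called sites of splicing factor genes by distance in bases from the nearest listed gene start, in bins of 10 bases. Red counts the 37 sites enriched in both mice and grey the other 30 called sites. The highest column is that of the first 10 bases, with 17 called sites, 10 of them enriched in both mice.

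Mouse 1 had 231 called sites in 61 splicing factor genes, and 178 of them (77.1%, exact 95% interval 71.1% to 82.3%) were enriched, beside 81.7% of all called sites. Mouse 2 had 241 called sites in 62 genes, and 175 (72.6%, 66.5% to 78.1%) were enriched, beside 79.1% of all called sites. These intervals cover counting error alone. The median fold over the called sites was 14.2 in mouse 1 and 13.9 in mouse 2, against 15.04 and 14.4 over all sites. Of 199 sites called in both mice, 143 were enriched in both, 18 in mouse 1 alone, 13 in mouse 2 alone and 25 in neither. Over all genes, 76.9% of the sites called in both were enriched in both. Of the enriched sites in mouse 1, the 143 were 80.3% (73.7% to 85.9%), and for mouse 2 they were 81.7% (75.2% to 87.1%), against 78.5% and 77.6% over all sites.

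The 2 mice gave similar folds for most sites and different ones for some of the strongest. Across the 199 sites, Pearson's r between the log2 folds was 0.76 and Spearman's rho was 0.71, beside 0.74 and 0.70 over all 38082 sites called in both. The points are sites that share 2 pairs of libraries, so the values describe these animals. The median absolute difference was 0.54 on the log2 scale, against 0.56 over all sites. The fold was higher in mouse 1 at 105 sites and higher in mouse 2 at 94.

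**Figure D2:**
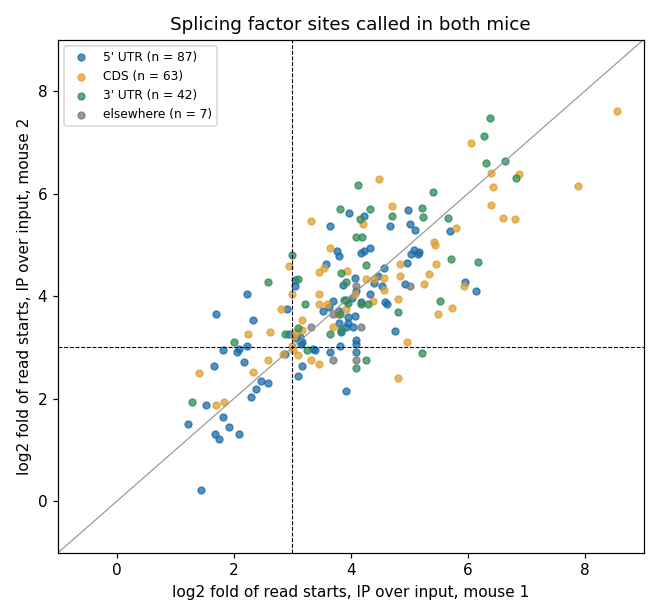
Each point is 1 of the 199 splicing factor sites called in both mice, with its log2 fold of read starts (IP over input) in mouse 1 on the x axis and in mouse 2 on the y axis, coloured by annotated position in mouse 1. Dashed lines mark the log2 limit of 3, and the 143 sites above and to the right of both were enriched in both mice.

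A called site was found in both mice for 59 of the 64 genes, and 52 of these (88.1%, 77.1% to 95.1%) carried a shared enriched site. Over all genes called in both mice the share was 86.9%, so the splicing factor genes lay near the background. The exact interval of each gene family described below held that share too. At a fold of at least 16 the count was 35 of 59 (59.3%), beside 60.2% over all genes. No test was made of these counts, since the 2 mice are the only replicates. Among the 52 genes 18 had exactly 1 shared enriched site, 14 had at least 4, and Srrm2 alone had at least 10. The median number was 2 per gene, against 3 over all genes with such a site. The strongest shared site of a gene had a median fold of 20.6 in mouse 1 and 28.2 in mouse 2, against 27.1 and 28.5.

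**Figure D3:**
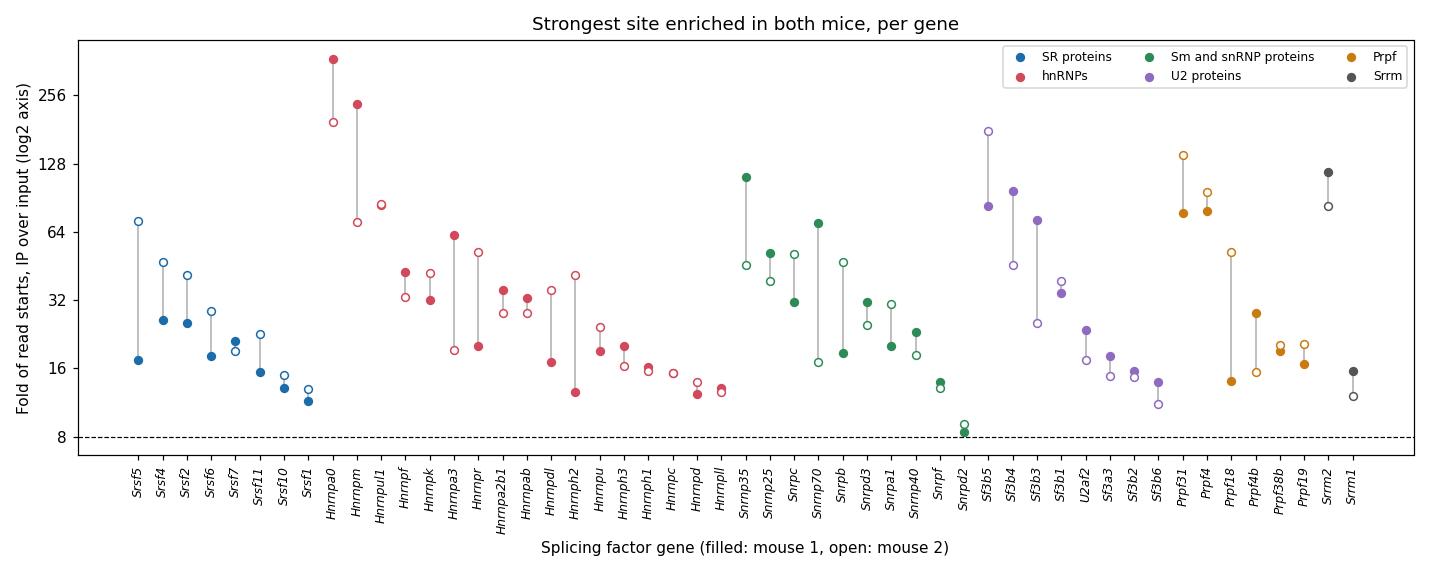
Fold of read starts (IP over input, log2 axis) at the strongest site enriched in both mice, for 51 of the 52 splicing factor genes that had one, grouped by family and ordered by mean log2 fold. Filled points are mouse 1, open points mouse 2, the grey line joins them, and the dashed line is the limit of 8. Hnrnpa0 is highest, at 373 and 195, and Snrpd2 lowest, at 8.36 and 9.08.

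Sites of splicing factor genes lay in 5' UTRs more often than sites of all genes together, a difference that was not tested. Of the 143 shared enriched sites, 56 (39.2%, 31.1% to 47.7%) lay in 5' UTRs, 48 (33.6%, 25.9% to 41.9%) in coding sequence, 34 (23.8%, 17.1% to 31.6%) in 3' UTRs and 5 elsewhere. Over all shared enriched sites the shares were 13.6% in 5' UTRs, 42.4% in coding sequence and 37.3% in 3' UTRs. Before the limit on the fold, 5' UTRs held 100 of 231 sites called in mouse 1 (43.3%) and 106 of 241 called in mouse 2 (44.0%), against 19.0% and 18.7% of all called sites. In 24 of the 52 genes (46.2%) every shared enriched site lay in the 5' UTR, which was so for 1024 of 6798 genes (15.1%) overall. A gene with few such sites meets this more easily, and 18 of the 52 had exactly 1, against 1910 of the 6798. The share was not adjusted for the number of sites. By family this share rests on few genes, and differences between families were not tested. It was 80% in Sm and snRNP protein genes (8 of 10) and 62.5% in SR protein genes (5 of 8). In hnRNP genes it was 47.1% (8 of 17), and in the Srrm genes 50% (1 of 2). It was near that of all genes in the Prpf genes (1 of 7, 14.3%) and in the Sf3a, Sf3b and U2af genes (1 of 8, 12.5%).

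Within the splicing factor genes, 5' UTR sites had lower median folds than coding and 3' UTR sites. In mouse 1 the median over called sites was 12.8 in 5' UTRs, 14.4 in coding sequence and 17.3 in 3' UTRs. In mouse 2 the medians were 11.1, 14.4 and 18.01. Enriched were 70 of 100, 58 of 72 and 41 of 48 called sites in mouse 1, and 69 of 106, 57 of 77 and 44 of 50 in mouse 2. The order was the same in all genes, where 64.7% of 5' UTR sites, 87.7% of coding sites and 87.7% of 3' UTR sites were enriched in mouse 1. It did not hold in every family. In the SR protein genes of mouse 2 the median fold was 19.1 in 5' UTRs (13 sites), 15.2 in coding sequence (2) and 16.8 in 3' UTRs (11).

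**Figure D4:**
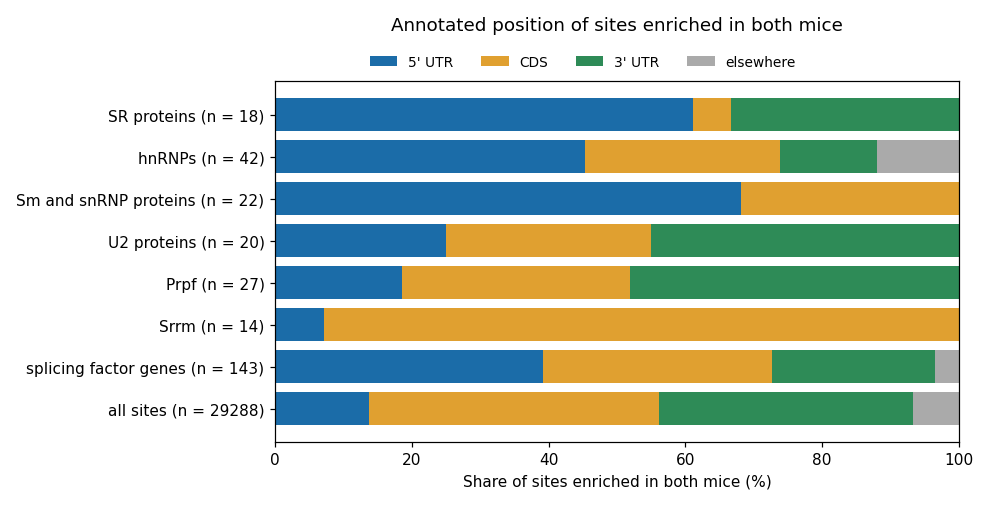
Share of sites enriched in both mice (in percent) by annotated position, for 6 families of splicing factor genes, for all 143 splicing factor sites and for all 29288 sites. The 5' UTR (blue) takes 68.2% in the Sm and snRNP protein genes and 7.14% in the Srrm genes, against 13.6% over all sites.

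Of the SR protein genes, 10 had a called site, 9 in both mice, and 8 carried a shared enriched site. Their 18 shared enriched sites lay in 5' UTRs (11), 3' UTRs (6) and coding sequence (1). In Srsf1, Srsf2, Srsf6, Srsf7 and Srsf10 they lay only in the 5' UTR. No called site of an SR protein gene was annotated to an intron, a splice site or a noncoding exon (0 of 22 in mouse 1, 0 of 26 in mouse 2). Over all genes 8.88% and 8.64% of called sites lay outside 5' UTRs, coding sequence and 3' UTRs. The exact intervals of the SR protein genes, 0% to 15.4% and 0% to 13.2%, held these shares. The Sm and snRNP protein genes and the Sf3a, Sf3b and U2af genes had no such site either. The hnRNP genes had 10 of 77 in mouse 1 and 6 of 74 in mouse 2. Several SR protein genes are known to limit their own product through a conserved exon that brings a stop codon.

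The strongest shared site of Srsf5 lay in its 3' UTR on chromosome 12 at 80949989, with folds of 17.5 and 71.7, a log2 difference (mouse 1 minus mouse 2) of -2.04 that was among the 3 largest at a gene's strongest shared site. A site 10 bases upstream, at 80949979, had 18.2 and 35.5, so both were higher in mouse 2. Srsf4 carried all 4 of its shared enriched sites in the 3' UTR on chromosome 4, the strongest at 131901092 (26.1 and 47.2). Its site at 131901170 went the other way, with 46.1 and 14.9. Srsf2, whose protein binds exonic enhancers, had 5' UTR sites on chromosome 11 at 116853090 (25.4 and 41.1) and 116853018 (18.8 and 29.7). Srsf3, which encodes a factor of splicing and mRNA export, had 1 called site, in the 5' UTR, at 7.35 and 7.31, just under the limit. Srsf9 had 1 site, called in mouse 2 alone, in the 3' UTR (16.8).

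All 19 hnRNP genes with a called site had one in both mice, and 17 carried a shared enriched site. Their 42 shared enriched sites lay in 5' UTRs (19), coding sequence (12), 3' UTRs (6) and elsewhere (5). In 8 of these genes, among them Hnrnpa2b1, Hnrnpab, Hnrnpc, Hnrnpd and Hnrnpk, they lay in the 5' UTR alone. The sites highest in fold were in coding sequence.

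Hnrnpa0, whose protein binds AU-rich elements of cytokine mRNAs in LPS-treated macrophages, had the strongest site of all splicing factor genes. It lay in coding sequence on chromosome 13 at 58128210, with folds of 373 in mouse 1 and 195 in mouse 2. The next coding site, at 58128306, had 55.7 and 40.4, and the 3' UTR site at 58127256 had 50.6 and 45.7. In the same gene the coding sites at 58127781 (2.64 and 5.66) and 58128096 (7.13 and 7.32) were under the limit in both mice, so within this gene, which spans 2.68 kb, folds of mouse 1 ran from 2.45 to 373.

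Hnrnpm encodes a splicing regulator that holds back processing of the Il6 transcript in mouse macrophages. It carried 9 shared enriched sites, 6 in coding sequence and 3 in the 5' UTR. The strongest, on chromosome 17 at 33650247, had folds of 235 and 70.9, and the coding site at 33650067 had 22.3 and 78.0, so the order of these 2 sites differed between the mice. The 5' UTR sites at 33685392, 33685401 and 33685403 had folds of 14.04, 30.3 and 35.8 in mouse 1 and 8.13, 18.8 and 28.9 in mouse 2. All 3 were lower in mouse 2 and kept their order.

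Hnrnpul1, which encodes a nuclear RNA-binding protein of the DNA damage response, had near-equal folds at its strongest site in coding sequence on chromosome 7 at 25754574 (84.2 and 84.7). Hnrnpf, whose protein binds runs of G, had a coding site on chromosome 6 at 117924830 (42.7 and 33.1). It also had a shared site annotated as distal intron at 117906777 (18.05 and 10.6), 5 bases before the nearest listed start, beside a 5' UTR site at 117906790 (15.7 and 49.1). The shared enriched site of Hnrnpll, a regulator of CD45 splicing in lymphocytes, was annotated as proximal intron, on chromosome 17 at 80048255 (13.04 and 12.5). The sites of Hnrnpa3 on chromosome 2 at 75659278 and 75659280, 2 bases apart, had folds of 32.1 and 62.2 in mouse 1 and of 18.3 and 19.3 in mouse 2. The tables annotated them in opposite ways, as noncoding exon and 5' UTR in mouse 1 and the reverse in mouse 2.

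Without a shared enriched site were Hnrnpl, whose protein binds CA repeats, and Hnrnpul2. The sites of Hnrnpl called in both mice had folds of 3.51 and 7.70 (5' UTR) and of 5.01 and 5.78 (coding sequence). A further coding site of Hnrnpl, at 28810911, reached 30.8 in mouse 2 and was not called in mouse 1. The only site of Hnrnpul2, in coding sequence, had 4.76 and 9.63.

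Of the Sm and snRNP protein genes, 14 had a called site, 13 in both mice, and 10 carried a shared enriched site. Their 22 shared enriched sites lay in 5' UTRs (15) and coding sequence (7), with none in a 3' UTR. In 8 of the 10 genes all lay in the 5' UTR, among them Snrpb, Snrpc, Snrpd2, Snrpd3, Snrpf and Snrnp25. These genes had few called sites, with a median of 2 per gene in each mouse.

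Snrnp35 and Snrnp25 encode proteins of the minor spliceosome, which removes a rare class of introns. Snrnp35 carried 6 shared enriched sites, all in coding sequence on chromosome 5, with folds of 112 and 45.6 at 124490516 and of 84.2 and 54.9 at 124490499. Snrnp25 had a 5' UTR site on chromosome 11 at 32205443 with 51.6 and 38.7. Snrnp70, which encodes a U1 protein, had 5' UTR sites 6 bases apart on chromosome 7. The one at 45395698 had 70.2 in mouse 1 and 17.1 in mouse 2, a log2 difference of 2.04, while that at 45395692 had 22.2 and 20.9.

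Snrpc, which encodes the U1 protein that contacts the 5' splice site, had 1 called site, in the 5' UTR, with folds of 31.3 and 51.03. Among the Sm proteins, which form the ring around the snRNA, Snrpb had a 5' UTR site on chromosome 2 at 130179366 (18.6 and 47.2). Snrpd3 had one on chromosome 10 at 75518018 (31.3 and 24.9). Snrpd1 had a 5' UTR site with 17.05 in mouse 1 and 7.54 in mouse 2, so it was enriched in 1 mouse. Snrpg had 3 sites in mouse 2 (27.7, 10.6 and 3.85, all 5' UTR) and none called in mouse 1. The U2 protein gene Snrpb2 stayed under the limit at both of its sites, with 4.88 and 4.10, and 4.16 and 7.56. Snrnp200, which encodes the helicase that unwinds U4 from U6, had 1 site, in the 3' UTR, at 9.53 and 7.70. Folds of mouse 2 were often whole multiples of 0.963, and 7.70 is 8 of these. With folds divided by that constant Snrnp200 passed in both mice, and 53 genes did in place of 52.

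Of the Sf3a, Sf3b and U2af genes, plotted as U2 proteins, 9 had a called site, and all 8 called in both mice carried a shared enriched site. The exact interval of that share was 63.1% to 100%, which holds the 86.9% of all genes. The 20 shared enriched sites of this family were spread over 3' UTRs (9), coding sequence (6) and 5' UTRs (5). Sf3b5, which encodes a small subunit of the SF3B complex and spans 0.734 kb, had its strongest sites in the 3' UTR on chromosome 10. Folds were 83.7 and 178 at 13009037, 99.7 and 99.2 at 13009013, and 37.8 and 46.3 at 13008945. Its 5' UTR sites called in both mice, at 13008448 and 13008505, had lower folds in both, 4.26 and 7.84, and 10.5 and 7.70.

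Sf3b4, an SF3B subunit that contacts pre-mRNA near the branch point, had 3 shared enriched sites in coding sequence, the strongest on chromosome 3 at 96173919 (97.3 and 45.7). Sf3b3 had 3' UTR sites on chromosome 8 at 110810842 (72.2 and 25.4) and 110810790 (19.6 and 14.4), both higher in mouse 1. Sf3b1, which encodes the subunit that holds the branch point, had its strongest shared site in the 5' UTR on chromosome 1 at 55027395 (34.3 and 39.0). Sf3a3 had a 5' UTR site on chromosome 4 at 124714854 (18.05 and 14.8). U2af2, which encodes the large U2AF subunit that binds the polypyrimidine tract, had 1 shared enriched site, in coding sequence on chromosome 7 at 5079306 (23.7 and 17.3). Its other sites included a 5' UTR site at 5062223 that reached 18.3 and was called in mouse 2 alone. Sf3a2 had a single site, in mouse 1, at 8.02.

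Of the Prpf genes, 10 had a called site, 8 in both mice, and 7 carried a shared enriched site. The 27 shared enriched sites lay in 3' UTRs (13), coding sequence (9) and 5' UTRs (5). Prpf31 and Prpf4, whose proteins hold U4 and U6 together in the tri-snRNP, were the highest. Prpf31 had 3' UTR sites 9 bases apart on chromosome 7, at 3640959 (113 and 78.6) and 3640968 (77.4 and 140), so a different one of them led in each mouse. Prpf4 carried 7 shared enriched sites, 6 of them in the 3' UTR on chromosome 4, the strongest at 62424261 (79.2 and 96.3) and 62424268 (42.1 and 65.5).

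Prpf18, a factor of the last splicing step, had a 3' UTR site on chromosome 2 at 4624384 (14.04 and 52.0). Prpf38a had 5' UTR sites only, at 2.88 and 3.69 and at 3.18 and 6.26 where called in both. A further site, at 108579117, reached 8.02 in mouse 1 and was not called in mouse 2. Another, called in mouse 2 alone, had 2.03. Prpf3 had 1 site in mouse 2 (5.78) and Prpf6 had 1 in mouse 1 (10.03).

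Srrm2, which encodes a large scaffold protein of nuclear speckles, had the most sites of all members, 19 called in mouse 1 and 21 in mouse 2. Of its 13 shared enriched sites, all in coding sequence on chromosome 17, the highest were at 23820757 (117 and 83.1), 23818301 (66.2 and 127) and 23820897 (86.2 and 70.3). They extended from 23817491 to 23820897, and the lowest by mean log2 fold, at 23818188, had 11.03 and 16.4. A site in a proximal intron at 23811963 was called in both mice and enriched in mouse 1 alone (17.05 and 6.74). Srrm1 had 1 shared enriched site, on the first listed base of the gene, on chromosome 4 at 135353146 (15.5 and 12.04).

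No site was called in either table used here for 16 of the 80 protein-coding RefSeq genes with these prefixes. The share over all RefSeq genes was not counted, so whether 16 is many or few cannot be said. Among the 16 are Prpf8, which encodes the protein at the centre of the spliceosome, and U2af1, which encodes the subunit that reads the AG of the 3' splice site. Sf3a1, Hnrnpa1, Snrpa, Snrpe and Snrnp48 are others. These names were chosen after the tables were seen. A missing site says nothing of expression, since no abundance was given.

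Other genes of pre-mRNA splicing gave a like count. Of 107 listed genes 90 had a called site and 82 had one in both mice, of which 71 (86.6%, 77.3% to 93.1%) carried a shared enriched site, beside 86.9% over all genes. The highest were Gemin7 of the SMN complex, which loads Sm proteins onto snRNA (88.6 and 129, 3' UTR), Raver1, a partner of the repressor PTB (136 and 77.5, annotated as near a miRNA), and Txnl4a of the U5 snRNP (77.2 and 98.2, coding sequence). Prmt5, the methyltransferase that modifies Sm proteins, followed with 92.3 and 79.0 in the 3' UTR, and the splicing regulator Mbnl2 with 53.7 and 94.4 in the 5' UTR. Rbm10, Gemin8, Cwc22 and Clk1 were among those that had a site called in both mice and none enriched in both. In this list 23.9% of genes with a shared enriched site had all of them in the 5' UTR, between the 46.2% of the splicing factor genes and the 15.1% of all genes.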

How the data were processed

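Per the submitters' processing notes, cutadapt 2.7, UMI-tools 0.5.1 and STAR 2.6.0c were used, with mm10 and hg38 as builds; positions here match mm10 (GRCm38). No source used here gives the site caller. The authors deposited 1 table per mouse with a score per site (all above 10, definition not given) and a fold, the ratio of read starts between IP and input within a mouse, per the file headers. The position is the end of each interval, where 5321 of 5321 sites near gene starts had an A, against 8.78% at its start. The members and lists were chosen with earlier results of these data known.

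Sites were joined on base and strand, and genes taken from the authors' column, without rows of joined names, which held no member. Annotations of mouse 1 were used for shared sites. Intervals are exact (Clopper-Pearson, 95%). With 1 IP per mouse and no counts, no test was made. Named were the 3 strongest members per prefix, the 6 richest in shared enriched sites, the 3 that differed most between mice, and those with an intronic site, with none enriched in both mice or called in 1 mouse; others were added after seeing values. Some genes and 1 sequence that these rules name are not reported here. Joining was tested on simulated data. Start sequences and gene spans are from RefSeq. Python 3.11.15, pandas 2.3.3, NumPy 2.4.6, SciPy 1.17.1 and Matplotlib 3.10.9 were used.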

Additional observations from a re-analysis of the deposited data

How the results depend on the processing

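At a fold limit of 16 in place of 8, enriched sites fell from 178 to 100 in mouse 1 and from 175 to 101 in mouse 2, shared enriched sites from 143 to 70, and other spliceosome genes with such a site from 71 to 46, as a stricter limit must give. The other 53 of 57 values under alternatives (the remaining values at fold limit 16, fold limit 4, folds divided by the constant of their table, a score of at least 20, sharing or merging within 5 bases, joined gene names, each mouse left out) stayed within 1.5 times for counts or within the exact interval for shares. Counting joined gene names could not move its value, since rows with such names held no splicing factor gene. Most settings kept many of the same sites, so staying within these bounds is a weak check. The 5' UTR share ranged from 34.3% (fold limit 16) to 41.8% (score of at least 20). With 1 mouse left out, 175 to 178 sites and 56 to 57 splicing factor genes were enriched. No paired analysis was possible because no result comes from a test; the pairing of IP with input in each mouse is already built into the deposited fold. Read numbers were not given, so the depth behind a fold, and whether differences between the mice exceed counting error, cannot be stated.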

Other observations

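Some called sites of splicing factor genes stood within a few bases of each other, though most did not. Among the 199 sites called in both mice, 140 pairs of neighbours lay in the same gene with a median distance of 65 bases, against 80 over all genes. In 14 pairs (10%) the distance was at most 5 bases, against 6.10% over all genes, a difference that was not tested. Pairs 1, 2 and 3 bases apart numbered 2, 3 and 7 of the 140, against 272, 420 and 331 of 29144 over all genes. These counts are few and were not tested. Pairs 3 bases apart were found in Srsf6 (162931528 and 162931531), Hnrnph1 (50377765 and 50377768) and Hnrnpa2b1 (51469842 and 51469845), among others. In Snrpd2 3 adjacent bases, 19149837 to 19149839, were all called in both mice, with folds of 8.36, 3.80 and 9.03 in mouse 1 and of 9.08, 2.74 and 6.21 in mouse 2.

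Folds that were whole multiples of the constant of their table made up 42.9% of splicing factor sites in mouse 1 and 45.2% in mouse 2, against 62.1% and 62.0% of all sites (tolerance 1e-06). The splicing factor genes spanned 0.734 to 56.7 kb with a median of 13.9 kb, against a median of 22.8 kb for the 8584 genes of any kind with a RefSeq span.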
